A study of Arabidopsis thaliana with 6 samples.

Results

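The Calvin cycle and photorespiration enzymes examined here are 37 Arabidopsis thaliana genes of the 33557 in the authors' deposited table, 21 of the Calvin cycle and 16 of photorespiration. They were chosen by gene identifier, as the plastid enzymes and regulators of carbon fixation and the photorespiratory enzymes of plastid, peroxisome and mitochondrion, and all 37 were tested by the authors. RNA was sequenced from 4-day-old whole seedlings of 2 genotypes, 3 libraries each, under a light regime that the labels code D4d+FR3h, with 4 days for D and 3 h for far-red (FR). Both genotypes carry the fhy1-1 mutation in FHY1, which helps the far-red receptor phytochrome A to enter the nucleus. The first genotype was the fhy1-1 mutant itself, called the mutant below. The second, called the GFP-FHY1 line below, was fhy1-1 with a GFP-FHY1 fusion driven by 35S, a viral promoter that is active in most plant cells. Neither a wild type nor seedlings kept from far-red are among the samples, so a response to far-red light and a standing difference between the lines cannot be told apart. The table holds 1 value per gene and genotype, the authors' value combined over the libraries. It carries no unit and is read from its layout as FPKM (transcript fragments per kilobase, scaled for sequencing depth). No SD can be given, and the depth of each library is unknown.

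In the Calvin cycle Rubisco joins CO2 to ribulose-1,5-bisphosphate, the product is reduced to triose phosphate with ATP and NADPH, and the acceptor is rebuilt from part of the triose phosphate. Rubisco also reacts with oxygen, and photorespiration salvages the 2-phosphoglycolate formed by that reaction through chloroplast, peroxisome and mitochondrion, with release of CO2 and ammonium. Genes of both pathways are known as light-induced in leaves and cotyledons, and G-box and I-box elements are known from promoters of Rubisco small subunit genes.

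FHY1 (AT2G37678) was read at 18.95 FPKM in the mutant and 195.9 FPKM in the GFP-FHY1 line, a log2 fold change of 3.37, which matches the genotype labels. Across all 23937 genes that the authors tested, 9.92% were called higher in the GFP-FHY1 line and 12.9% were called lower, where a call is a q-value below 0.05 in the authors' deposited table. Among the 10017 tested genes with a mean of at least 10 FPKM, these shares were 15.9% and 25.9%. The median log2 fold change of tested genes was -0.05. All 8 markers of seed storage protein were lower in the GFP-FHY1 line, with their sum at 143.4 FPKM in the mutant and 39.1 FPKM in the line, and none was at 0. Of 8 root markers 1 was higher and 2 were lower, with a sum of 117.6 FPKM in the mutant and 101.7 FPKM in the line. The part of either marker list in the differences below was not tested. In RNA from whole seedlings, fewer cells of a type and less RNA per cell cannot be told apart.

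Of the 37 genes, 32 were called higher in the GFP-FHY1 line, 3 were called lower and 2 were not called, against the 9.92% and 12.9% of all tested genes. Calvin cycle genes divided into 17 higher, 3 lower and 1 without a call, with a median log2 fold change of 0.43 and a range from -0.31 to 2.53. Photorespiratory genes divided into 15 higher and 1 without a call. No gene of the photorespiration list had a lower value in the GFP-FHY1 line. The median log2 fold change of that list was 0.81, with a range from 0.14 to 2.08. This direction holds for the listed genes only, and the lists were chosen with earlier results of these data known. Of 24 other isoforms of photorespiratory enzymes, described below, 4 were called higher and 10 lower. The ranges of the pathways overlapped over most of their width, and the difference between the medians was not tested, since genes are not replicates. The summed level of the Calvin cycle genes was 7878 FPKM in the mutant and 10932 FPKM in the line, a ratio of 1.39, and that of the photorespiratory genes was 1313 and 2285 FPKM, a ratio of 1.74. Without the 4 Rubisco small subunit genes, which held most of the first sum, the Calvin cycle sums were 1870 and 2953 FPKM, a ratio of 1.58.

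**Figure D1:**
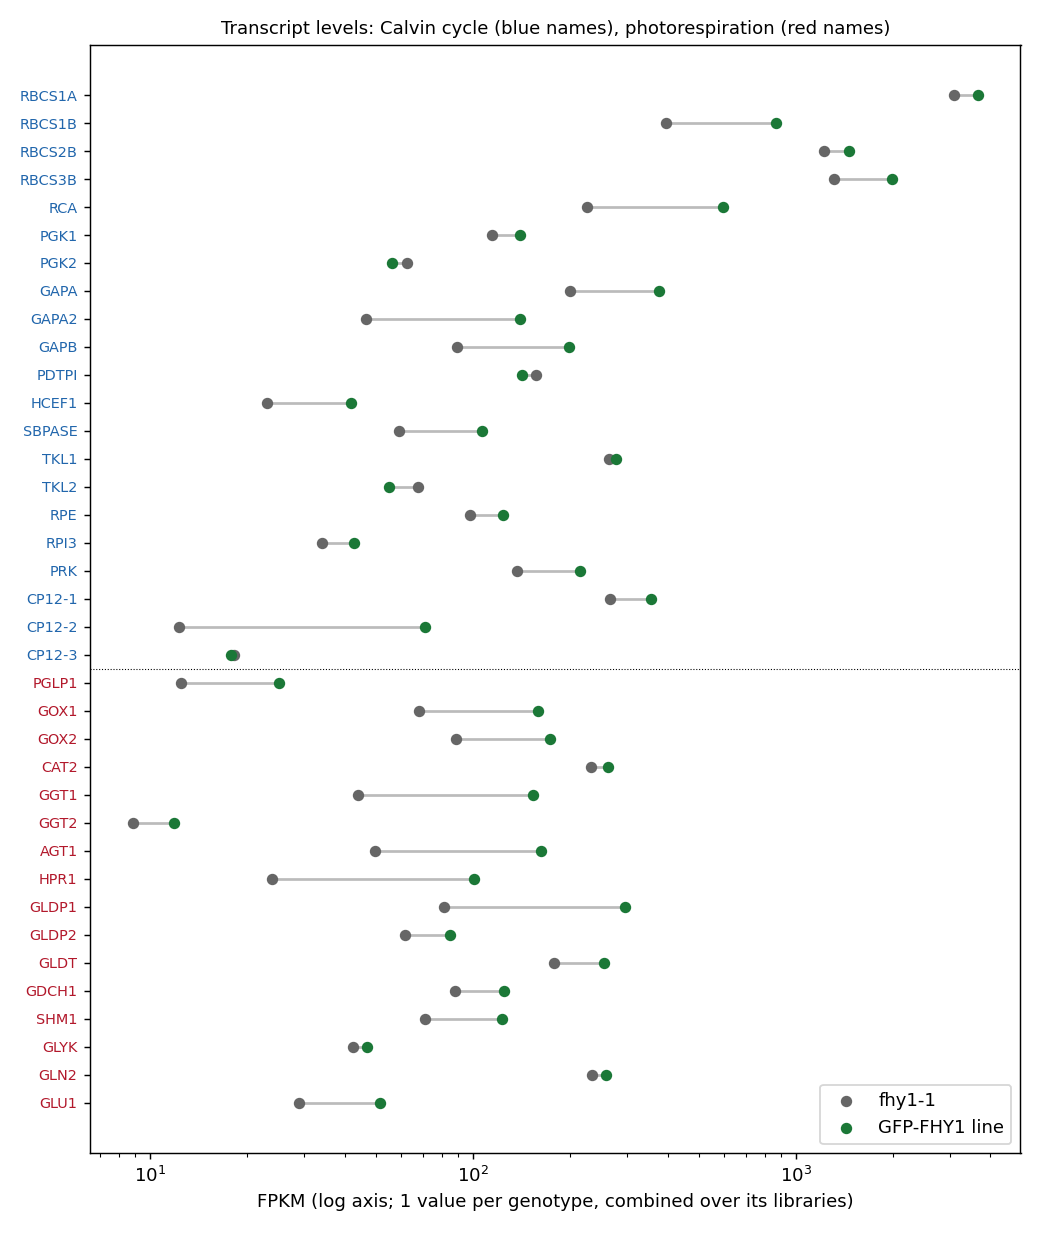
Level of each gene in fhy1-1 (grey) and the GFP-FHY1 line (green) as FPKM on a log axis, with 1 combined value per genotype and no error bar. The Rubisco small subunit genes lie at the top of the range, RBCS1A at 3083 and 3666 FPKM, and the green point lies to the right of the grey point for all but PGK2, PDTPI, TKL2 and CP12-3.

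The error of each log2 fold change, as implied by the authors' deposited statistic, ran from 0.00723 to 0.136 over the 37 genes, with a median of 0.031. Whether these errors include the spread between libraries is not known, and they cannot be checked against values of single libraries. A wider error was therefore also computed, in which a spread of 20% between the 3 libraries of a genotype (coefficient of variation) was added, and its median over the 37 genes was 0.238. With that error 17 of the 37 genes were called higher and 0 lower, against 2.42% and 0.389% of all tested genes. The 3 genes called lower at the authors' own error, PGK2, PDTPI and TKL2, had log2 fold changes between -0.31 and -0.14. Of the 37 genes 11 were at least 2-fold higher in the GFP-FHY1 line, 5 of the Calvin cycle and 6 of photorespiration. The share was 4.40% among the 23355 tested genes with both values above 0. Among the 10004 of those with a mean of at least 10 FPKM it was 2.38%.

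**Figure D2:**
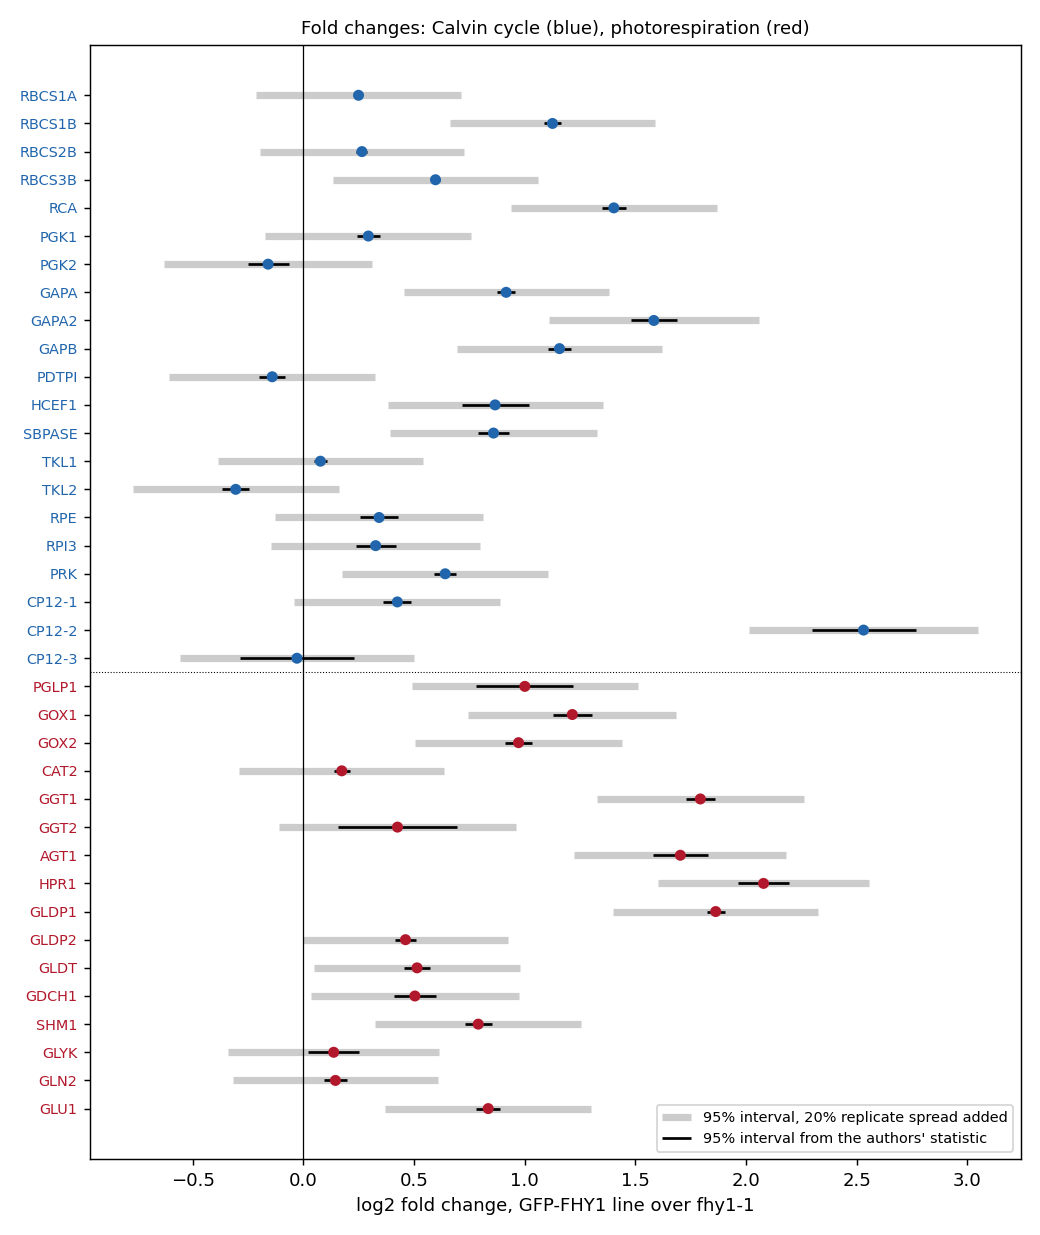
Log2 fold change of each gene (GFP-FHY1 line over fhy1-1) with its 95% interval from the authors' statistic (black) and with a replicate spread of 20% added (grey). CP12-2 at 2.53 and HPR1 at 2.08 are the rightmost points. The wide intervals of RBCS1A, RBCS2B, PGK1, TKL1 and CAT2 are among those that include 0.

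Rubisco is built of a large subunit encoded in the chloroplast genome and small subunits encoded in the nucleus by the RBCS genes. All 4 RBCS genes were higher in the GFP-FHY1 line. RBCS1A (AT1G67090, chromosome 1, 25048158 to 25049424, TAIR10) was at 3083 FPKM in the mutant and 3666 FPKM in the line, a log2 fold change of 0.25. RBCS1B (AT5G38430, chromosome 5, 15384117 to 15385247) was at 396.5 and 865.5 FPKM, a log2 fold change of 1.13. It was thus the lowest of the 4 genes in both genotypes and had the largest fold change of them. RBCS2B (AT5G38420) was at 1218 and 1463 FPKM, a log2 fold change of 0.27, and RBCS3B (AT5G38410) was at 1311 and 1984 FPKM, a log2 fold change of 0.60. The family sum was 6009 FPKM in the mutant and 7979 FPKM in the line, a ratio of 1.33. RBCS1B made up 6.60% of that sum in fhy1-1 and 10.8% in the line, while the share of RBCS1A was 51.3% and 45.9%. The fold change of RBCS1B exceeded that of RBCS1A by 0.88 on the log2 scale. The 95% interval of this difference was 0.22 to 1.53 at a replicate spread of 20%. This pair set the largest of the 4 fold changes against the smallest. From RBCS3B, RBCS1B differed by 0.53, with an interval of -0.13 to 1.18 that includes 0 at that spread. RBCS3B differed from RBCS2B by 0.33, with an interval of -0.32 to 0.99. RBCS1B, RBCS2B and RBCS3B lie side by side on chromosome 5. The coding sequences of RBCS1B and RBCS2B were 97.3% identical over 546 bases, and RBCS1B shares an unbroken run of 230 identical bases with RBCS3B. How the authors' counting divided reads between such copies is not given in the sources used here, so the split within this cluster is uncertain while the family sum is less exposed to it. All 279 chloroplast and mitochondrial genes of the table were listed at 0, so the large subunit was not analysed here.

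The small subunit genes also differ in the sequence before their start codons. The stretches below were read from the TAIR10.1 RefSeq genome on the minus strand, 5′ to 3′, with I-box (GATAAG) and G-box (CACGTG) letters in capitals, and are shown because the copy with the largest fold change is the one without the pairing of both elements. They span chr1:25049503-25049532 for RBCS1A, chr5:15378518-15378546 for RBCS3B, chr5:15382189-15382217 for RBCS2B and chr5:15385315-15385343 for RBCS1B.
RBCS1A: GATAAGattcatggaattatcttcCACGTG
RBCS3B: GATAAGataatggagttttctgcCACGTG
RBCS2B: GATAAGattatggagttttctgcCACGTG
RBCS1B: atttcctcacaaaagaaaGATAAGATAAG
In RBCS1A, RBCS2B and RBCS3B an I-box stood a short way before a G-box, at positions -283 and -259, -239 and -216, and -240 and -217 from the start codon. RBCS1B held overlapping I-boxes at -170 and -165 and no G-box in the 500 bases before its start codon. By the RefSeq annotation the pairs of RBCS1A and RBCS3B lay after the gene start and that of RBCS2B before it. The authors' loci start elsewhere, 243 bases away for RBCS1A and 226 bases away for RBCS3B. By those loci, which start at 25049424, 15378416 and 15382035 for RBCS1A, RBCS3B and RBCS2B, every pair lay before the gene start. Whether the pairs of RBCS1A and RBCS3B are transcribed is therefore not settled here. These matches are a description of letters and not of bound sites.

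Rubisco activase, which frees Rubisco of bound sugar phosphates, was among the genes with large differences. RCA (AT2G39730, chromosome 2, 16570746 to 16573548) was at 225.1 FPKM in the mutant and 595.3 FPKM in the line, a log2 fold change of 1.40. Its 95% interval with a replicate spread of 20% was 0.94 to 1.87. No other gene of the table came close to RCA in coding sequence, the best match being 65.5% identical over 37.9% of its length.

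In the reduction steps, the 3 genes of the plastid glyceraldehyde-3-phosphate dehydrogenase rose together, and those of the phosphoglycerate kinase before it did not. The dehydrogenase uses NADPH and is made of A and B subunits. GAPA (AT3G26650) was at 199.2 FPKM in the mutant and 376.0 FPKM in the line, a log2 fold change of 0.92. GAPA2 (AT1G12900), the second A subunit gene, was at 46.5 and 139.6 FPKM, a log2 fold change of 1.58. GAPB (AT1G42970) was at 88.9 and 198.4 FPKM, a log2 fold change of 1.16. The 3 levels added to 334.7 FPKM in the mutant and 714.0 FPKM in the line, a ratio of 2.13. GAPA2 moved from 18.9% to 27.1% of the A subunit level, and its fold change exceeded that of GAPA by 0.67, with an interval of 0.00478 to 1.33 at a replicate spread of 20%. Phosphoglycerate kinase makes the substrate of this enzyme. Its gene PGK1 (AT3G12780) was at 114.0 and 139.8 FPKM, a log2 fold change of 0.29. PGK2 (AT1G56190) was at 62.5 and 56.0 FPKM, a log2 fold change of -0.16 with a q of 0.00470 in the authors' deposited table. Neither kinase gene kept its call with a replicate spread of 20%, nor did the difference between them, at 0.45 with an interval of -0.21 to 1.11.

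Regeneration of the CO2 acceptor showed the widest mix of directions. PDTPI (AT2G21170), the plastid triose-phosphate isomerase, was at 156.5 FPKM in the mutant and 142.0 FPKM in the line, a log2 fold change of -0.14. The bisphosphatases, which carry out irreversible steps and are switched on by thioredoxin, were both higher. HCEF1 (AT3G54050), the plastid fructose-1,6-bisphosphatase, was at 23.0 and 41.9 FPKM, a log2 fold change of 0.87. SBPASE (AT3G55800), the sedoheptulose-1,7-bisphosphatase, was at 58.9 and 106.8 FPKM, a log2 fold change of 0.86. The fold changes of these genes differed by 0.01, with an interval of -0.67 to 0.68 at a replicate spread of 20%. HCEF1 was 1 of 2 genes, with RPI3, whose locus overlaps another gene of the table, so reads of the neighbour cannot be told apart there.

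The transketolases, which move carbon pairs between sugar phosphates, had opposite small differences. TKL1 (AT3G60750) was at 262.7 FPKM in the mutant and 277.2 FPKM in the line, a log2 fold change of 0.08. TKL2 (AT2G45290) was at 67.6 and 54.7 FPKM, a log2 fold change of -0.31. Their sum was 330.3 and 331.9 FPKM, the closest match between genotypes of any enzyme step with several genes. The pentose phosphate steps were modestly higher. RPE (AT5G61410), the ribulose-phosphate epimerase, was at 97.6 and 123.8 FPKM, a log2 fold change of 0.34. RPI3 (AT3G04790), a plastid ribose-phosphate isomerase, was at 34.03 and 42.7 FPKM, a log2 fold change of 0.33. None of these 4 genes kept its call with a replicate spread of 20%. PRK (AT1G32060), the phosphoribulokinase that completes the acceptor, was at 137.0 and 213.6 FPKM, a log2 fold change of 0.64 with an interval of 0.18 to 1.11 at that spread, but no call after adjustment over all tested genes. The same held for RBCS3B.

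A grouping made after the values were seen, and therefore given without a test, sorted the enzymes by use. The first group goes by reaction and the second by enzyme, so the criterion was uneven. The groups were formed with these values known, so the gap between them is a description only. The 7 genes whose reactions other plastid pathways also use (PGK1, PGK2, PDTPI, TKL1, TKL2, RPE and RPI3) had a median log2 fold change of 0.08, from -0.31 to 0.34, with 4 called higher and 3 lower. The 7 genes of activase and of enzymes used in the Calvin cycle alone (RCA, GAPA, GAPA2, GAPB, HCEF1, SBPASE and PRK) had a median of 0.92, from 0.64 to 1.58, and all 7 were called higher. Of all tested genes 9.92% were called higher and 12.9% lower, and at a mean of at least 10 FPKM 15.9% and 25.9%. The 4 Rubisco small subunit genes and the 3 CP12 genes are in neither group. RBCS1A at 0.25 and RBCS2B at 0.27 lie within the range of the first group, so the gap between the groups rests on leaving the small subunit genes out.

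The CP12 proteins bind phosphoribulokinase and the plastid glyceraldehyde-3-phosphate dehydrogenase in an inactive complex in darkness. CP12-2 (AT3G62410, chromosome 3, 23090944 to 23091566) was at 12.3 FPKM in the mutant and 71.0 FPKM in the line, 5.78-fold higher, with a log2 fold change of 2.53. It was the largest fold change of the 37 genes. CP12-1 (AT2G47400) was at 265.7 and 356.7 FPKM, a log2 fold change of 0.43. CP12-3 (AT1G76560) was at 18.1 and 17.8 FPKM, a log2 fold change of -0.03 with a q of 0.932 in the authors' deposited table, and its sign turned under both other scalings. CP12-2 thus moved from 4.15% to 15.9% of the CP12 level, while CP12-1 remained the main transcript at 89.7% and 80.1%. The fold change of CP12-2 exceeded that of CP12-1 by 2.11, with an interval of 1.41 to 2.80 at a replicate spread of 20%. The 250 bases before the annotated start of CP12-2 (chr3:23090694-23090943, plus strand, TAIR10.1 RefSeq, 5′ to 3′) are shown as the upstream sequence of the gene with the largest fold change, with an I-box in capitals.
CP12-2: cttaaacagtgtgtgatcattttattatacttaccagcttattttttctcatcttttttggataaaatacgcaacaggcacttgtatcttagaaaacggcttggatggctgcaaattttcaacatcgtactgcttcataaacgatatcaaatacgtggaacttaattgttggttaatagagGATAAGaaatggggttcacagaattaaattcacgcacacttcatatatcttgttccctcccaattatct
The window held 1 I-box, at -131 from the start codon, and no G-box.

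Photorespiration begins in the chloroplast with phosphoglycolate phosphatase. PGLP1 (AT5G36700) was at 12.5 FPKM in the mutant and 24.98 FPKM in the line, a log2 fold change of 1.00. Its coding sequence is identical over all 1089 bases to that of AT5G36790, which was at 12.8 and 25.2 FPKM, so the pair cannot be told apart by reads within the coding sequence and its 2 values are not independent.

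All 7 listed peroxisomal genes were called higher in the GFP-FHY1 line, against 9.92% of all tested genes. Among tested genes with a mean of at least 10 FPKM that share was 15.9%. With a replicate spread of 20%, 5 of the 7 kept the call. The 7 genes summed to 515.0 FPKM in the mutant and 1021 FPKM in the line, a ratio of 1.98. Glycolate oxidase turns glycolate into glyoxylate and hydrogen peroxide. GOX1 (AT3G14420) was at 68.2 and 158.4 FPKM, a log2 fold change of 1.22, and its neighbour GOX2 (AT3G14415) was at 88.3 and 173.3 FPKM, a log2 fold change of 0.97. The coding sequences of GOX1 and GOX2 were 90.9% identical, and their fold changes differed by 0.24, with an interval of -0.42 to 0.90 at a replicate spread of 20%. Catalase breaks down the hydrogen peroxide. CAT2 (AT4G35090), the catalase gene counted here, was at 231.9 and 261.6 FPKM, a log2 fold change of 0.17, the smallest of the 7.

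Of the aminotransferases that turn glyoxylate into glycine, GGT1 and AGT1 were among the genes with the largest fold changes and GGT2 was not. GGT1 (AT1G23310, chromosome 1, 8268404 to 8271933), a glutamate:glyoxylate aminotransferase, was at 44.1 FPKM in the mutant and 153.0 FPKM in the line, a log2 fold change of 1.79. Its relative GGT2 (AT1G70580) was at 8.82 and 11.8 FPKM, a log2 fold change of 0.43 with a q of 0.00972 in the authors' deposited table. AGT1 (AT2G13360), the serine:glyoxylate aminotransferase, was at 49.8 and 162.3 FPKM, a log2 fold change of 1.70. The ratios of the line to the mutant were 3.47 for GGT1, 3.26 for AGT1 and 1.34 for GGT2.

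HPR1 (AT1G68010, chromosome 1, 25493196 to 25495988), the peroxisomal hydroxypyruvate reductase, was at 23.9 FPKM in the mutant and 101.0 FPKM in the line, 4.23-fold higher, with a log2 fold change of 2.08 and an interval of 1.60 to 2.56 at a replicate spread of 20%. It had the largest fold change of the photorespiratory genes. Its upstream sequence (chr1:25492943-25493192, plus strand, TAIR10.1 RefSeq, 5′ to 3′) is shown beside that of CP12-2, since it held none of the 4 motifs searched and has no capitals.
HPR1: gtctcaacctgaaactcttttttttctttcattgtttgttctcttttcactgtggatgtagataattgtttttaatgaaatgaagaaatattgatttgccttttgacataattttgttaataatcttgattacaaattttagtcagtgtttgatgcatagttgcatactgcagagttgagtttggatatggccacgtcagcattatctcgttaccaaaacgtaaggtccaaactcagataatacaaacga
The absence of a match says only that these letters are not in this window.

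In the mitochondrion, glycine decarboxylase and serine hydroxymethyltransferase turn glycine into serine. All 5 genes counted here were called higher, against 9.92% of all tested genes and 15.9% at a mean of at least 10 FPKM. GLDP1 (AT4G33010, chromosome 4, 15926670 to 15931332), a gene of the P protein that binds glycine, was at 81.1 FPKM in the mutant and 295.1 FPKM in the line, a log2 fold change of 1.86. GLDP2 (AT2G26080), the other P protein gene, was at 61.6 and 84.9 FPKM, a log2 fold change of 0.46. GLDT (AT1G11860), the T protein gene, was at 178.5 and 254.9 FPKM, a log2 fold change of 0.51. GDCH1 (AT2G35370), which encodes an H protein that carries the lipoyl arm, was at 87.6 and 124.2 FPKM, a log2 fold change of 0.50. SHM1 (AT4G37930), the serine hydroxymethyltransferase, was at 71.0 and 122.8 FPKM, a log2 fold change of 0.79. GLDP1 had the largest fold change of the 5, and the sum went from 479.8 to 881.9 FPKM, a ratio of 1.84. With a replicate spread of 20%, GLDP1 and SHM1 kept their calls after adjustment over all tested genes and GLDP2, GLDT and GDCH1 did not.

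In the last steps, back in the chloroplast, GLYK and GLN2 showed small differences and GLU1 a larger one. GLYK (AT1G80380), the glycerate kinase that returns the carbon to the Calvin cycle, was at 42.6 FPKM in the mutant and 46.8 FPKM in the line, a log2 fold change of 0.14 with a q of 0.0765 in the authors' deposited table. GLN2 (AT5G35630), the plastid glutamine synthetase that recaptures ammonium, was at 233.9 and 258.7 FPKM, a log2 fold change of 0.15. GLU1 (AT5G04140), the main leaf ferredoxin-dependent glutamate synthase, was at 28.9 and 51.6 FPKM, a log2 fold change of 0.84 with an interval of 0.37 to 1.30 at a replicate spread of 20%. The 6 photorespiratory genes that were at least 2-fold higher were PGLP1, GOX1, GGT1, AGT1, HPR1 and GLDP1, and GLYK, GLN2 and CAT2 were the genes nearest to no difference.

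Related genes, mostly isoforms of the same enzyme, were then set against each other. Of 25 pairs, which include HCEF1 with SBPASE and GAPA with GAPB, the difference in log2 fold change left out 0 in 22 with the authors' error and in 13 with a replicate spread of 20%, each by a 95% interval without adjustment over the pairs. Partners that belong to neither pathway list were named as partners of these genes, after their values had been seen. The pairs were picked by hand and not every pair of a family was compared, so both counts depend on the pairs chosen. GLN2, for example, was set against GLN1-2 at -0.65 and not against GLN1-1 at -0.26 or GLN1-3 at -0.14. GLDP1 made up 56.8% of the P protein level in fhy1-1 and 77.7% in the line, and its fold change exceeded that of GLDP2 by 1.40, with an interval of 0.75 to 2.06 at a spread of 20%. GGT1 made up 83.3% and 92.8% of its family, and its fold change exceeded that of GGT2 by 1.37, with an interval of 0.66 to 2.08. SHM1 made up 60.6% and 75.3% of the mitochondrial pair with SHM2, and its fold change exceeded that of SHM2 by 0.99. GLU1 made up 29.1% and 45.8% of the level shared with GLU2, and its fold change exceeded that of GLU2 by 1.04. GOX3, a glycolate oxidase outside the list, went from 12.6% to 5.50% of the glycolate oxidase level. Among the catalases no such difference was seen, with CAT2 at 12.4% of the catalase level in both genotypes and a difference from CAT3 of 0.00, with an interval of -0.65 to 0.66 at a spread of 20%.

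**Figure D3:**
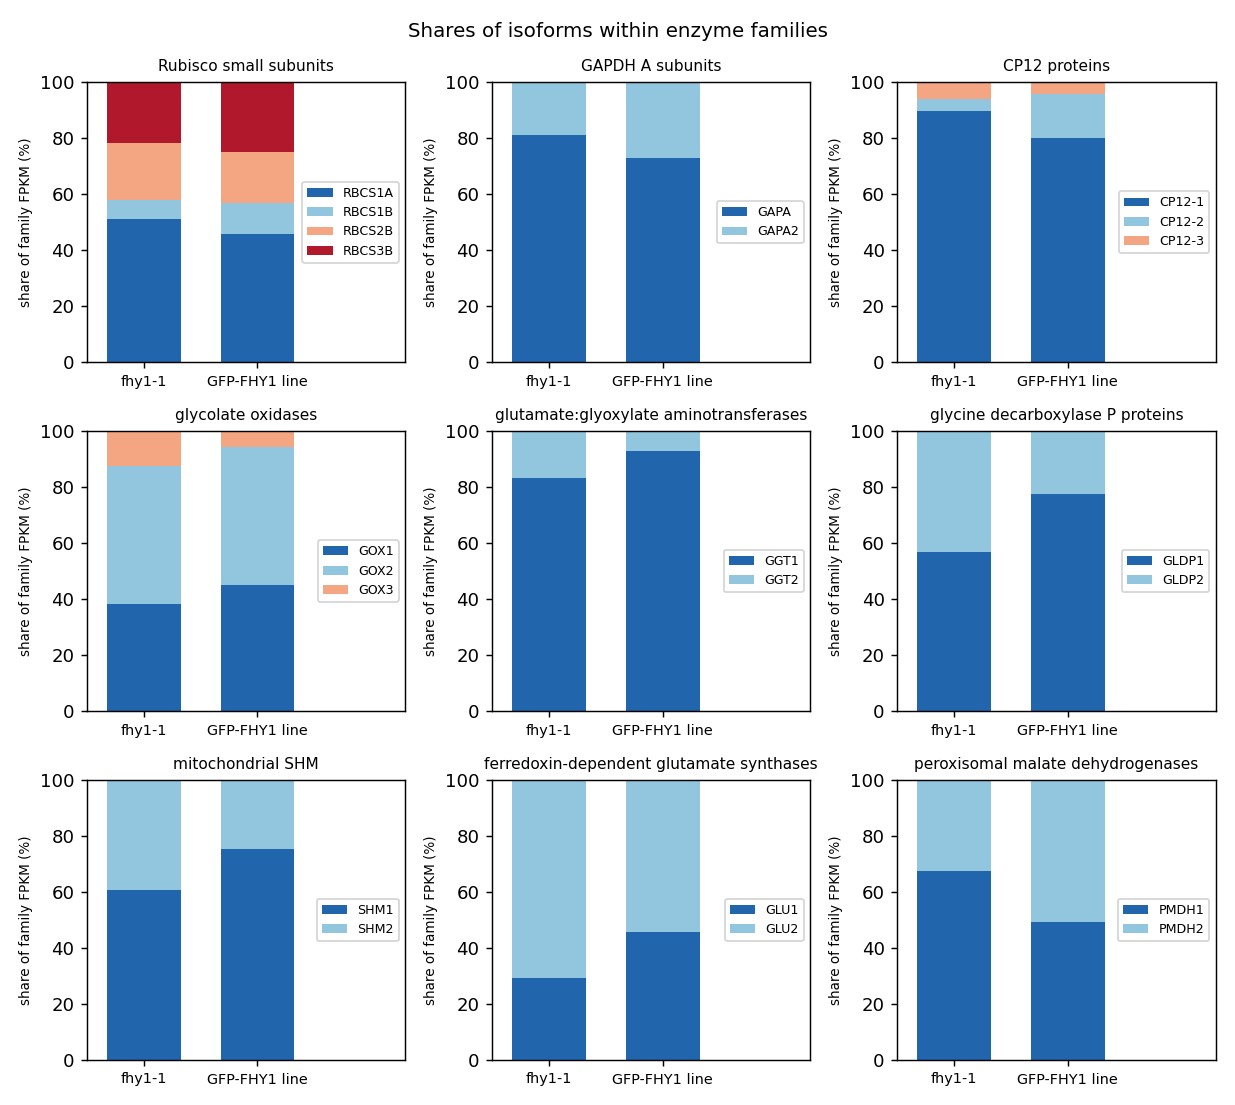
Share of each isoform in the summed FPKM of its enzyme family (percent, stacked to 100) in the mutant and the line for 9 families. GLDP1 goes from 56.8% to 77.7%, SHM1 from 60.6% to 75.3% and CP12-2 from 4.15% to 15.9%, while RBCS1A goes from 51.3% to 45.9%.

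Cytosolic and other isoforms of the same enzymes, and the lists after them, are to be read against the 9.92% of all tested genes called higher and the 12.9% called lower, and against 15.9% and 25.9% at a mean of at least 10 FPKM. Of 13 such isoforms of Calvin cycle enzymes, 2 were called higher and 6 lower, with a median log2 fold change of -0.14. With a replicate spread of 20%, 1 was called higher and 0 lower. RPI2, a ribose-phosphate isomerase, was at 10.6 FPKM in the mutant and 21.7 FPKM in the line, and CYFBP, the cytosolic fructose-1,6-bisphosphatase, was at 37.8 and 52.1 FPKM. Those lower included the glycolytic CTIMC at 689.0 and 545.0 FPKM, GAPC2 at 1035 and 843.3 FPKM and GAPCP2 at 13.4 and 9.66 FPKM. The fold change of plastid GAPA exceeded that of cytosolic GAPC2 by 1.21, with an interval of 0.56 to 1.87 at a replicate spread of 20%. This partner was chosen after the values were seen. GAPC1, the other cytosolic gene, was at 1191 and 1010 FPKM, a log2 fold change of -0.24, and was not paired with GAPA. Of 24 other isoforms of photorespiratory enzymes, 4 were called higher and 10 lower, again with a median of -0.14. With a replicate spread of 20%, 0 were called in either direction, and the 10 lower calls were already 1 at a spread of 10%. GLN1-2, a cytosolic glutamine synthetase, was at 1334 and 851.8 FPKM, a log2 fold change of -0.65. SHM7 was at 32.2 and 26.3 FPKM and GLN1-1 at 140.2 and 117.3 FPKM. MTLPD1, a lipoamide dehydrogenase that serves glycine decarboxylase as its L protein, was higher at 79.5 and 104.5 FPKM. GDCH3, an H protein gene, was also higher at 133.5 and 174.7 FPKM. The related MTLPD2 at 75.5 and 63.9 FPKM and GDCH2 at 132.8 and 116.3 FPKM were called lower. The summed levels of line over mutant had a ratio of 1.09 for the lipoamide dehydrogenases and 1.17 for the H proteins with GDCH1.

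Transporters and the peroxisomal malate shuttle, which connect the compartments, held 4 genes called higher and 2 lower among 8, with a median of 0.32, against 9.92% and 12.9% of all tested genes. With a replicate spread of 20%, 2 were called higher and 0 lower. BOU, a mitochondrial carrier needed for photorespiration, was at 13.7 FPKM in the mutant and 30.7 FPKM in the line. PLGG1, the plastid glycolate and glycerate carrier, was at 24.6 and 44.8 FPKM, and TPT, which exports triose phosphate, was at 83.5 and 132.9 FPKM. The peroxisomal malate dehydrogenases, which supply NADH for hydroxypyruvate reduction, were opposed, with PMDH2 at 43.4 and 71.9 FPKM and PMDH1 at 90.4 and 69.6 FPKM. PMDH2 thus moved from 32.4% to 50.8% of their sum, and the difference in fold change was 1.11 with an interval of 0.44 to 1.77 at a spread of 20%.

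The lists of factors that act on the Calvin cycle enzymes had median log2 fold changes below the 0.43 of the Calvin cycle genes. Of 11 Rubisco assembly factors, 6 were called higher and 2 lower, with a median log2 fold change of 0.17, against 9.92% and 12.9% of all tested genes. RBCX1 had the largest log2 fold change of the 11, 1.02, at low levels of 2.48 FPKM in the mutant and 5.05 FPKM in the line. RBCX2, a Rubisco assembly chaperone, was at 12.5 FPKM in the mutant and 20.9 FPKM in the line, RAF2 at 63.6 and 81.6 FPKM, CPN60B2 at 43.5 and 52.9 FPKM and BSD2 at 129.9 and 145.7 FPKM. Of 8 genes of the chloroplast thioredoxin system, which switches on bisphosphatases and dissolves the CP12 complex in the light, 5 were called higher and 1 lower, with a median of 0.34, against the same shares. The f-type thioredoxins were higher, TRXF1 at 23.4 and 38.8 FPKM and TRXF2 at 16.7 and 26.1 FPKM. NTRC, an NADPH-dependent thioredoxin reductase, was at 20.8 and 30.7 FPKM, TRXM1 at 49.6 and 63.5 FPKM and TRXM4 at 43.5 and 54.4 FPKM. Of the genes named from these lists, RPI2, GDCH3, TPT, RBCX1, RAF2 and NTRC overlap another locus of the table, with the limit given for HCEF1. With a replicate spread of 20%, 0 genes of the assembly and thioredoxin lists were called.

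**Figure D4:**
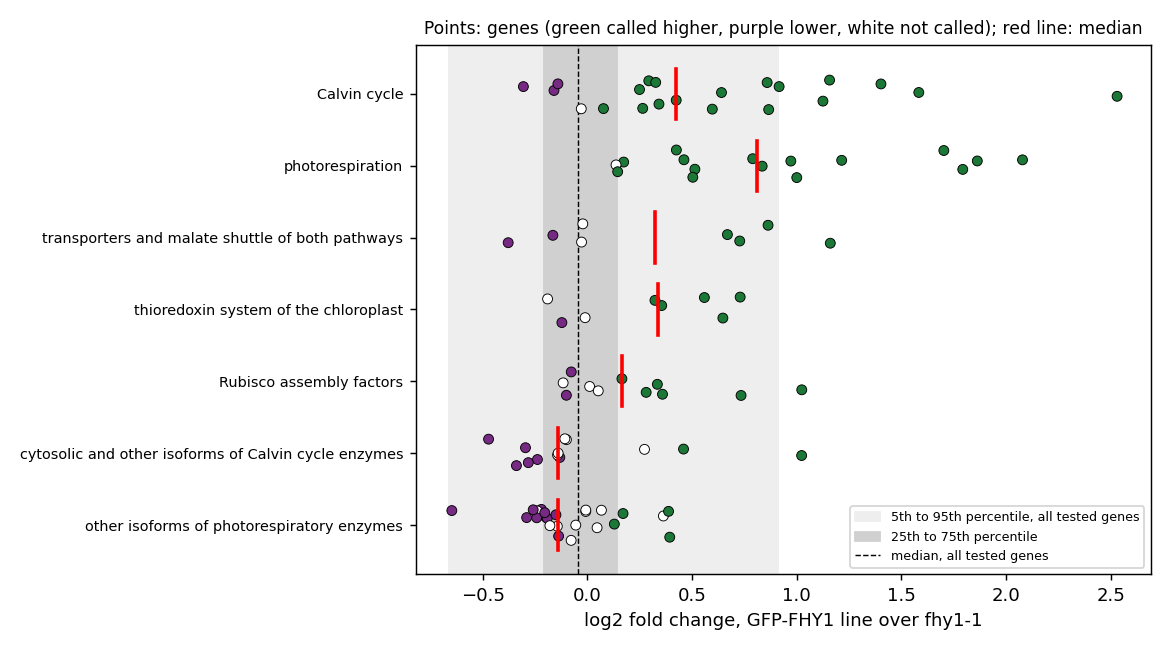
Log2 fold change of each gene (GFP-FHY1 line over fhy1-1) by list, with calls by the authors' q below 0.05 in colour, the median of each list as a red line, and percentiles of all tested genes in grey. The medians run from 0.81 for photorespiration and 0.43 for the Calvin cycle to -0.14 for both lists of other isoforms, and points are spread vertically at random within a list.

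Level and fold change were not ordered alike among the 37 genes, with a Spearman rho of -0.09 across genes, which are not independent replicates and share the same libraries.

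Sequence before the start codon differed between the pathways in how often the letters of light-related motifs occurred. Both strands of 500 bases were searched for the G-box CACGTG, the I-box GATAAG, the FHY3/FAR1 site CACGCGC and the evening element AAAATATCT, in 27444 protein-coding genes of TAIR10.1. No motif contains another. The I-box occurred in 16 of 21 Calvin cycle genes (76.2%), in 0 of 16 photorespiratory genes and in 23.5% of all genes. The G-box occurred in 9 of 21 Calvin cycle genes (42.9%), in 1 of 16 photorespiratory genes (6.25%, GLDP1) and in 9.30% of all genes. Both occurred together in 7 of 21, in 0 of 16 and in 2.29% of all genes. The FHY3/FAR1 site was found in PDTPI and the evening element in TKL1 only, against 1.80% and 4.02% of all genes.

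The choice of window changed this contrast. In the 250 bases before the annotated gene start, the G-box occurred in 19.0% of Calvin cycle and 18.8% of photorespiratory genes, against 6.49% of all genes, and the I-box in 23.8% and 6.25%, against 12.3%. In the 500 bases before the annotated gene start, the G-box occurred in 23.8% and 18.8%, against 9.35%, and the I-box in 38.1% and 18.8%, against 22.4%. The annotated distance from gene start to start codon had a median of 240.0 bases in the Calvin cycle genes and 392.5 bases in the photorespiratory genes, so the windows hold unequal amounts of upstream sequence. The annotated starts are themselves uncertain, as the starts of RefSeq and of the authors' table lay a median of 88.0 bases apart for the 37 genes. Within the Calvin cycle, the 9 genes with a G-box before the start codon had a median log2 fold change of 0.43 and the 12 without had 0.48. The 16 genes with an I-box had a median of 0.51, from -0.16 to 2.53, and the 5 without had 0.08, from -0.31 to 1.58, so the ranges overlapped.

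**Figure D5:**
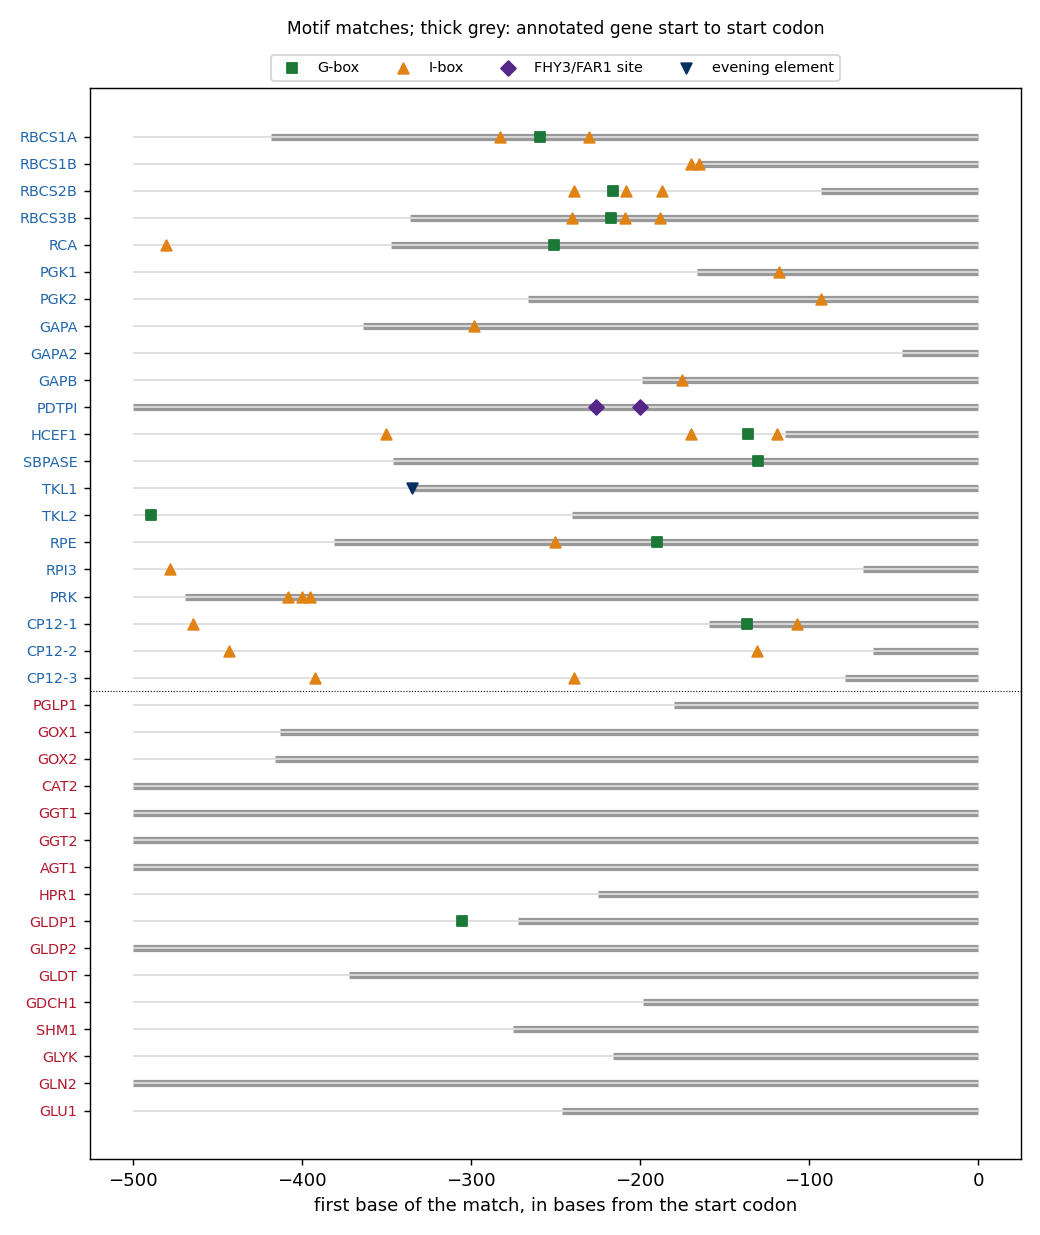
Position of motif matches in the 500 bases before the start codon of each gene, with the annotated stretch from gene start to start codon as a thick grey line. I-box matches (triangles) occur in 16 Calvin cycle genes and in 0 photorespiratory genes, and the 1 G-box (square) among photorespiratory genes is that of GLDP1.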

How the data were processed

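The labels describe 6 libraries, 3 per genotype, of RNA from whole seedlings prepared with the Illumina mRNA protocol. Bowtie and TAIR10 are named in the submitters' processing notes, and per the file headers the deposited table has the layout of a Cuffdiff gene comparison. For versions, filters, strand handling and dispersion, the setting is not given in the sources used here. Deposited values carry no unit and are read as FPKM from that layout, 1 per gene and genotype, combined by the authors. The test statistic deposited by the authors is a score whose two-sided normal tail equals the authors' deposited p-value to within 2.75e-06, and the authors' q-value equals a Benjamini-Hochberg adjustment to within 1.82e-06. The authors' deposited log2 fold changes equal those recomputed from FPKM to within 1.46e-05 for tested genes. How far the p-values cover the spread between libraries is not known, since the dispersion setting is not.

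The standard error of a log2 fold change was taken as the fold change divided by the statistic, and 95% intervals follow from it. A gene was called at a q below 0.05. The 37 genes and all other lists were chosen with earlier results of these data known. Named genes are the 37, FHY1 and up to 5 called genes per other list, by absolute log2 fold change at a mean of at least 5 FPKM, of which 1 is not reported here. Alternatives were a stricter q of 0.01, a 2-fold minimum, Bonferroni adjustment, a floor of 1 FPKM, a pseudocount of 1 joined to a log2 minimum of 0.58, centring, rescaling without a ribosomal RNA locus, leaving out overlapping loci, and a replicate spread of 10% or 20%. Leaving out near-identical copies (95% identity over 80% of the coding sequence) was added after seeing the data. Coordinates of loci are from the table (TAIR10). Sequences, start codons and motifs are from the TAIR10.1 RefSeq genome, in which all 118 listed genes were found, and coding sequences were compared with BLAST 2.17.0. Python 3.11.15, pandas 2.3.3, numpy 2.4.6, scipy 1.17.1 and matplotlib 3.10.9 were used.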

Additional observations from a re-analysis of the deposited data

How the results depend on the processing

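The 17 Calvin cycle genes called higher became 5 with a log2 fold change of at least 1, 10 with the pseudocount of 1 and its log2 minimum of 0.58, 11 with a replicate spread of 10% and 8 with a spread of 20%. The 3 called lower became 0 under each of those 4 settings. The 15 photorespiratory genes called higher became 6, 9 and 9 with the fold minimum, the pseudocount and the spread of 20%. Centring on the median moved the medians of the Calvin cycle and of photorespiration to 0.47 and 0.86, and rescaling without the ribosomal RNA locus, 28.6% of all FPKM in the mutant and 38.0% in the line, moved them to 0.46 and 0.85, through a constant shift in each case. CP12-3 turned from -0.03 to 0.0205 when centred and to 0.0069 when rescaled, without a call in either. GLYK gained a call under both, PGK2 lost its call when centred, and PGK2 and GGT2 lost theirs with Bonferroni adjustment. All 37 genes kept their call or lack of one at a q below 0.01. Leaving out overlapping loci or near-identical copies changed no call among the genes left. No paired analysis was possible because each genotype has 1 combined value, and for the same reason leaving out single libraries was not run. The depth of the libraries is unknown, so calls on differences of a few percent rest on the authors' error alone.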
